A study of Mus musculus with 22 samples.

Results

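A set of 742 open chromatin sites was followed through mouse spermatogenesis. The sites were chosen in TERT-deleted spermatogonia as autosomal ATAC-seq peaks (chromosomes 1 to 19) whose mean signal in MCAM-medium cells was at least 10 CPM (the usual library-size scaling of counts, here by all counts in peaks) and at least 3 times that in MCAM-high cells. They made up 742 of 96049 peaks (0.773%), and 2.83% of the 26234 autosomal peaks at 10 CPM or more in deleted MCAM-medium cells, which served as the reference set of open peaks. ATAC-seq uses Tn5 transposase to insert adapters into accessible DNA, so the counts over a peak measure how open it is.

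All cells came from C57BL/6 mice 8 to 12 weeks old. Spermatogonia were sorted by FACS on day 7 after tamoxifen into KIT-negative cells with high MCAM, KIT-negative cells with medium MCAM, and KIT-positive cells. Titles separate TERT-hetero (control) from TERT-deleted animals, whereas the genotype entry is TertCreER/+:Rosalsl-Tdtomato/+ for both. Both thus carry a tamoxifen-activated Cre at 1 Tert allele, active where Tert is expressed, and a Cre-dependent tdTomato reporter. Control libraries numbered 3 (MCAM-high), 2 (MCAM-medium) and 3 (KIT-positive), and deleted libraries 3 in each population. A further 5 heterozygous libraries of genotype TertTdtomato/+, titled spermatocytes or round spermatids, were kept as 1 group of later germ cells, because title and library name disagreed on the cell type of 4 of them. The labels do not say whether replicates are separate mice, so each p-value reflects library-to-library spread, possibly technical only. All 5 later libraries share 1 name stem, TERT-TdTom-Het1, so they may be parts of 1 preparation, which the labels do not state. If so, their SD and the p-values of later comparisons hold no spread between animals for that group.

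Undifferentiated spermatogonia hold the stem cells of the testis and the progenitors that follow them, and they pass into differentiating spermatogonia that display the receptor KIT and then enter meiosis. MCAM is a surface adhesion molecule whose level was used to divide the undifferentiated cells. Regulatory DNA away from gene starts, such as enhancers, often opens and closes from one cell state to the next, and promoters of broadly used genes tend to stay open.

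Total counts in peaks ran from 922085 to 3358377 per library, so that 3 counts, the limit that a count of 0 allows, were worth 0.893 to 3.25 CPM. Intervals of counting are not given for single sites, and these limits cover counting error only. The Mcam gene-end peak did not separate the gates, at 22.4 to 33.1 CPM in control MCAM-high and 27.3 and 32.5 CPM in control MCAM-medium libraries. A Tert gene-end peak was present in all spermatogonial libraries at 13 to 29.8 CPM and does not check the deletion, as the deleted part is not given in the sources used here. The summed signal of 23 gene-end peaks of differentiating spermatogonia genes was 993 to 1107 CPM in control KIT-positive libraries against 623 to 685 CPM in the 5 control KIT-negative ones, with no overlap. Sums of stem cell genes did overlap, at 748 to 834 CPM against 752 to 875 CPM, and so did those of progenitor genes. The lists were chosen with earlier results of these data known, and the gap was not compared with that of other peaks. It is therefore a description and no test of the sort.

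Before any result, the control libraries did not group by label at these sites. With 2 libraries labelled MCAM-medium, the controls alone do not show which of them departs from its label. The 742 sites together held 12319, 3747 and 3789 CPM in the libraries labelled control MCAM-high replicates 1, 2 and 3, and 3712 and 12630 CPM in those labelled control MCAM-medium replicates 1 and 2. The library labelled MCAM-high replicate 1 was thus at the level of MCAM-medium replicate 2, and the library labelled MCAM-medium replicate 1 at the level of MCAM-high replicates 2 and 3. The 185 autosomal peaks found by the mirrored rule (at least 10 CPM in deleted MCAM-high cells and 3 times the MCAM-medium mean) were arranged the other way, at 1110, 1875 and 1875 CPM against 1743 and 1174 CPM.

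The same held outside both sets. Over 45152 peaks in neither set, the library labelled MCAM-high replicate 1 correlated best with MCAM-medium replicate 2 (r = 0.901) of 16 other spermatogonial libraries, and the library labelled MCAM-medium replicate 1 with MCAM-high replicate 2 (r = 0.903). These correlations run across peaks, which are not independent, and share depth and peak strength. The cause was not tested, no library was moved to another group, and each result that uses them is given with all libraries and again without these 2. The second fit leaves 2 control MCAM-high libraries and 1 control MCAM-medium library, taken to vary as the other groups do. It was added after the data were seen. The 2 libraries were singled out in part by their level at these same sites, so every count, fold change and adjusted p at the sites without them depends on that choice. Such values describe the libraries left and are no test of the sites, even where they lie above the background of all peaks.

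**Figure D1:**
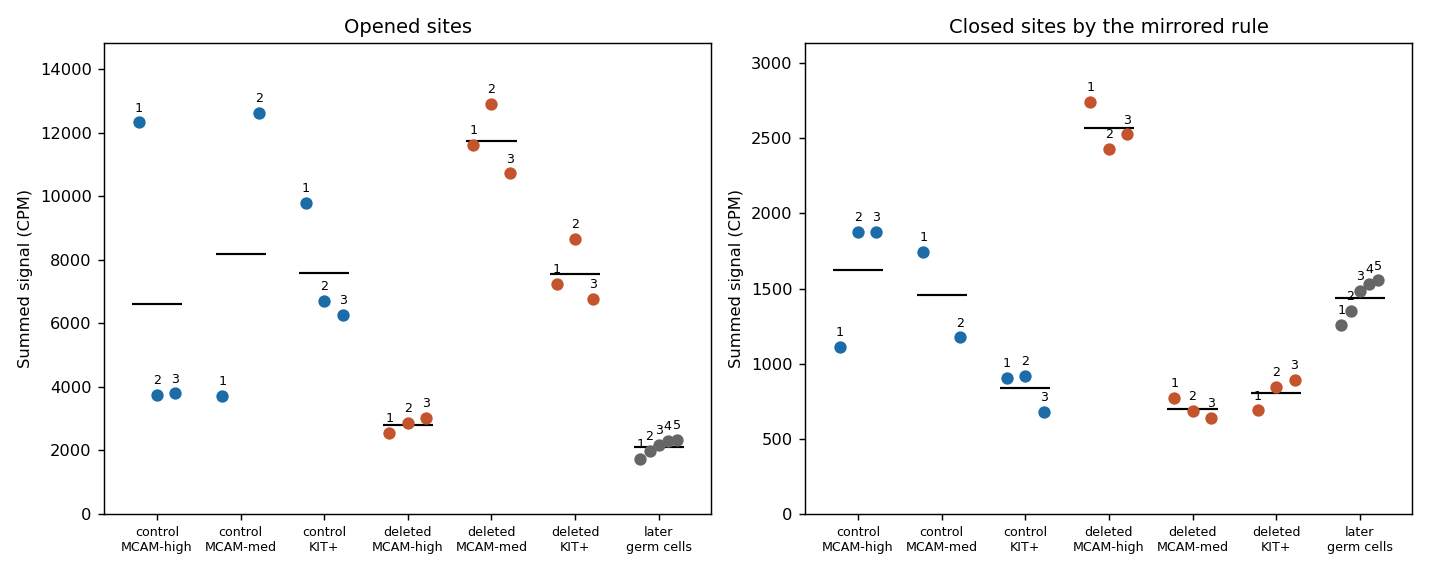
Summed signal in CPM (y axis) of the 742 opened sites (left) and of the 185 sites closed by the mirrored rule (right) in each library, grouped by population and genotype; points are libraries with their replicate number, and bars are group means. The libraries labelled control MCAM-high 1 and control MCAM-medium 1 lie at 12319 and 3712 CPM at the opened sites, each nearest to a control KIT-negative library of the other label.

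Few of the sites lay on promoters, so sequence could be shown for only a few. RefSeq promoter windows (GRCm38.p6, 250 bases before a gene start and 50 after it) touched 14 of the 742 sites, and in 8 of these the 250 bases before the start lay wholly inside the site. Of these 8 stretches 4 are shown, chosen after their values were seen because they stand for different courses. The Mobp site is the one with the smallest p for the MCAM step without the 2 libraries, Lpar1 has the largest rule ratio of the 8 (11.31), Rsph14 is at 21.6 CPM or more in every later library, and Fbxo40 is the strongest in KIT-positive cells. Sequences run 5′ to 3′ on the gene's strand, and capitals mark matches on either strand to the motifs that follow. They are Mobp (chromosome 9, 120149492 to 120149741, plus strand), Lpar1 (chromosome 4, 58499404 to 58499653, minus strand), Rsph14 (chromosome 10, 75032587 to 75032836, minus strand) and Fbxo40 (chromosome 16, 36990468 to 36990717, minus strand).
Mobp: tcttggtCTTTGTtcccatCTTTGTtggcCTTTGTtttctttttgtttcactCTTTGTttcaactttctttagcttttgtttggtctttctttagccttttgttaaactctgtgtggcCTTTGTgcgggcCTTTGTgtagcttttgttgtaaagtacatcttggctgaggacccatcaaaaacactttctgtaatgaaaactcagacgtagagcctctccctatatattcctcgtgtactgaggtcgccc
Lpar1: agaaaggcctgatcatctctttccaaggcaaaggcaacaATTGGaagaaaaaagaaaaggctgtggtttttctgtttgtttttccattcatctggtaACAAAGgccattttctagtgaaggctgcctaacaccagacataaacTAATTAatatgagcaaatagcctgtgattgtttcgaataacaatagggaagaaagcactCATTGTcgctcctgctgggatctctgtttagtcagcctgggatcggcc
Rsph14: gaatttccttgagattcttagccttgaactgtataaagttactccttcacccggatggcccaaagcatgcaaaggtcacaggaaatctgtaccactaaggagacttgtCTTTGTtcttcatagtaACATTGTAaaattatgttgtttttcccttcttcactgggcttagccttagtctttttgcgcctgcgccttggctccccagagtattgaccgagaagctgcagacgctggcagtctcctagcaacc
Fbxo40: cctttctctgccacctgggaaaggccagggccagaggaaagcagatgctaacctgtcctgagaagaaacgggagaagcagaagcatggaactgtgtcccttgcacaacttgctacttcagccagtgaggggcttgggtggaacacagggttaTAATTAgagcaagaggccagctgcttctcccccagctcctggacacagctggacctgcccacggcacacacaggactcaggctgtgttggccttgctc

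The Mobp stretch holds ACAAAG, the core of TCF/LEF and SOX sites, 6 times, each on the minus strand. Of the 8 stretches 3 hold ACAAAG at least once, against 16.5% of 32817 windows of the same length. ACATTGTA, a longer form that overlaps ACAATG, occurs in 1 of 8 (Rsph14) and in 0.570% of all windows. ACAATG itself occurs in 3 of 8 and in 10.7%, and TAATTA, a homeodomain core, in 2 of 8 (Lpar1 and Fbxo40) and in 4.84%. The motif CCAAT was found in 3 of 8 stretches and in 33.8% of windows, and the motif GGGCGG in 3 of 8 and in 32.7%. The motif AGATAA was in 2 of 8 (9.99% of windows), CACGTG in 1 of 8 (6.02%), CCGGAAG in 1 of 8 (6.91%) and TGANTCA in 1 of 8 (6.75%). No stretch holds TGACGTCA (1.55% of windows), the octamer ATGCAAAT (1.60%), the forkhead core TGTTTAC (3.16%) or the TEAD core CATTCC (12.6%). With 8 stretches these counts describe the letters and carry no test. GC content ran from 40.8% to 64.8% (median of all windows 52.4%).

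The values that chose the sites are given as a description only. The ratio of deleted MCAM-medium to MCAM-high means had a median of 4.03, was 5 or more at 205 sites and 10 or more at 33, and reached 45.96 at a site in Pias1, which encodes a SUMO ligase. In the 3 numbered pairs of deleted libraries MCAM-medium was the higher at 741, 739 and 723 sites. It was at least 3 times higher, in CPM as they stand, at 553, 581 and 457. At 213 sites all 3 pairs reached 3 times, and at 689 the groups did not overlap, counts that the rule itself favours in these libraries. The rule therefore rests on means, and most sites did not reach 3 times in every pair.

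The sites just inside the limit lay in Col4a1, which encodes a basement membrane collagen, in Camsap2, which encodes a microtubule minus-end protein, and at Fbxo40. At the Camsap2 site the deleted libraries read 5.60, 2.73 and 8.33 CPM (MCAM-high) and 27.1, 14.8 and 8.18 CPM (MCAM-medium). Just outside lay peaks in Grap2 and Capn10 and 1 whose nearest gene is Tnks, and the Grap2 peak read 7.47, 5.46 and 10 against 20.6, 31.8 and 16.4 CPM. Values on either side of the limit were alike, and at Camsap2 MCAM-medium replicate 3 lay below MCAM-high replicate 3.

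Of the sites with the highest ratio (1 CPM added to both means), 7 are described. They lie in Gm38765 (a predicted gene), Pias1, Hspa12a (a heat shock protein relative) and Rab40c (a small GTPase), or lie nearest to Gpr20, Trim44 and Tas2r130. The Gm38765 site read 3.73, 0.682 and 0 CPM in deleted MCAM-high and 26.4, 27.3 and 36.0 CPM in deleted MCAM-medium libraries. In controls it read 27.5, 2.69 and 4.57 CPM in the libraries labelled MCAM-high and 5.11 and 29.7 CPM in those labelled MCAM-medium. The pattern of the summed signal, with both libraries numbered 1 nearest to a library of the other label, recurred at this site. The library labelled MCAM-high replicate 1 was the highest of its group at all 7.

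**Figure D2:**
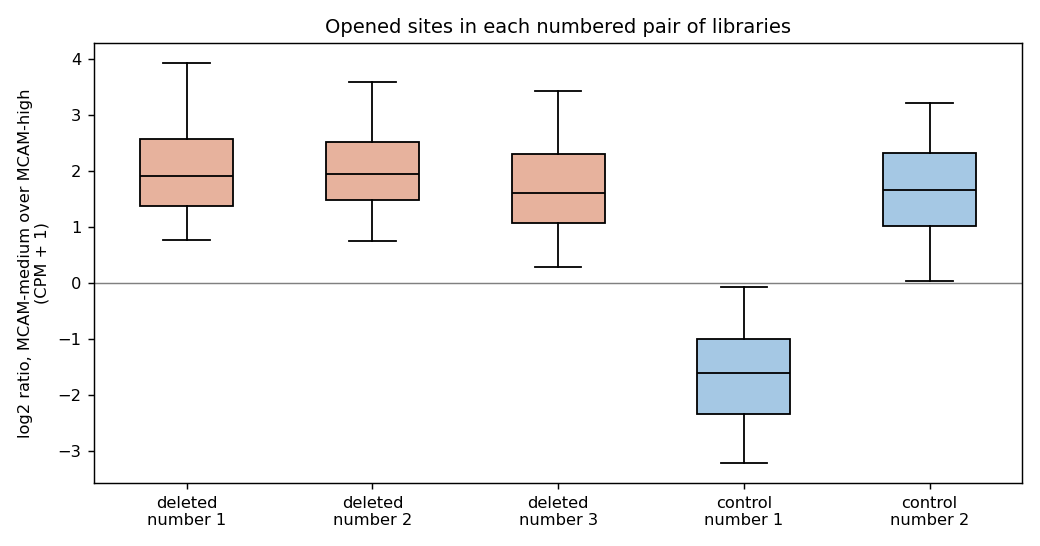
Distribution over the 742 sites of the log2 ratio of MCAM-medium to MCAM-high signal (CPM + 1, y axis) in libraries of equal number, set side by side for display only; boxes give quartiles and median, whiskers the 5th to 95th percentiles. The 3 deleted pairs, which chose the sites, have medians of 1.91, 1.95 and 1.61, control pair 1 has -1.61 and control pair 2 has 1.66.

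The first question was whether the step from MCAM-high to MCAM-medium cells opened these sites in control mice, whose libraries had no part in the choice. The answer depended on which libraries were set side by side. Library names share a number across the gates, which may mark a common preparation, though the labels do not state this. Libraries of equal number are paired for display alone, and the main fits do not pair them. MCAM-high replicate 3, at 3789 CPM over the sites, is in no control pair. In pair 2 MCAM-medium was higher at 707 of 742 sites (95.3%), at least 3 times at 452, with a median log2 ratio of 1.66. In pair 1 it was higher at 34 sites (4.58%), and the library labelled MCAM-high was at least 3 times higher at 452, with a median of -1.61. Over the reference set of open peaks MCAM-medium was higher at 51.0% (pair 2) and 49.9% (pair 1).

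With all libraries, no site passed for control MCAM-medium minus MCAM-high. Of the 742 sites 733 passed the filter on low counts and were tested, and edgeR's quasi-likelihood test called 0 higher and 0 lower, as of all 57717 peaks tested (0.0% higher, 0.0% lower). At an unadjusted p under 0.05 stood 6 of these sites and 854 of all peaks, and DESeq2 also called 0 of the sites. Both MCAM-medium libraries lay above all 3 MCAM-high ones at 10 of the 742 sites (1.35%, against 7.99% of the open reference peaks) and below them at 6 (0.809%, against 7.29%). The fitted log2 fold change was above 0 at 497 of the 733 sites, with a median of 0.21 (-0.01 over all peaks).

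Without the 2 libraries 55 of the 733 sites were called higher and 0 lower, or 7.50%, against a background of 0.192% of all peaks called higher (111 of 57717) and 0.29% of the reference set of open peaks. The choice of those 2 libraries by these sites favours such calls, and the 1 MCAM-medium library left has no replicate. The fold change was above 0 at 709 sites (96.7%, against 47.4% of all peaks), with a median log2 of 1.78 (-0.04 over all peaks). The 6 called sites in or at a gene with the smallest p, named after their values were seen, lie at Mobp and in Synj2, L3mbtl4, Wt1os, Rb1 and Ide.

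The Mobp site (chromosome 9, 120149224 to 120149780) overlaps the start of a gene for a myelin protein. It read 24.5, 0.898 and 2.29 CPM in the libraries labelled control MCAM-high and 0 and 35.9 CPM in those labelled MCAM-medium. The groups overlapped fully, with both libraries numbered 1 nearest to a library of the other label. Here too the value without both is conditional on their removal. With all libraries the log2 fold change was 0.82 ± 0.84 (SE, edgeR adjusted p = 1), and without both it was 4.44 ± 0.72 (edgeR adjusted p = 0.00179).

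The Rb1 site (chromosome 14, 73231388 to 73231988) lies in the gene of the retinoblastoma protein, which restrains entry into S phase. It read 38.0, 4.49 and 5.14 CPM (labelled MCAM-high) and 9.29 and 64.4 CPM (labelled MCAM-medium), and went from 1.14 ± 0.66 (edgeR adjusted p = 1) to 3.68 ± 0.66 (0.00488) without the 2 libraries. In deleted libraries, which chose it, it read 9.34, 11.6 and 11.7 CPM against 39.9, 40.6 and 36.0 CPM. Rb1 holds another of the 742 sites as well.

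Synj2 encodes a phosphoinositide phosphatase, L3mbtl4 a protein with chromatin-reading MBT domains, Ide the insulin-degrading enzyme and Wt1os an RNA antisense to Wt1. The Synj2 site (chromosome 17, 5997867 to 5998672) was the strongest of the 6, at 66.2, 13 and 16.0 CPM (labelled MCAM-high) and 11.2 and 91.7 CPM (labelled MCAM-medium). Without both libraries its log2 fold change was 2.62 ± 0.46 (edgeR adjusted p = 0.00488), that of L3mbtl4 3.71 ± 0.66 (0.00488), that of Wt1os 4.11 ± 0.74 (0.00488) and that of Ide 2.75 ± 0.51 (0.0085). With all libraries the 4 values lay between 0.34 and 0.70, and edgeR adjusted p was 1 for all 4.

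The 5 sites with the lowest fold change with all libraries, none of which passed in either fit, lie in Slc16a12, Piezo2 (a mechanically gated channel) and 2700069I18Rik, or nearest to Hnrnpu and Wwox. The site nearest to Hnrnpu (28703 bp away; chromosome 1, 178367594 to 178367893) read 13.9, 2.69 and 4.00 CPM (labelled MCAM-high) and 0.929 and 2.48 CPM (labelled MCAM-medium). Its log2 fold change was -2.07 ± 0.84 (edgeR adjusted p = 1), and -0.44 ± 1.06 (0.995) without both. The other 4 lay at -1.24 to -1.06 with all libraries and at -0.19 to 0.39 without both, where those in Slc16a12 (0.39) and 2700069I18Rik (0.056) and the one nearest to Wwox (0.26) turned positive.

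**Figure D3:**
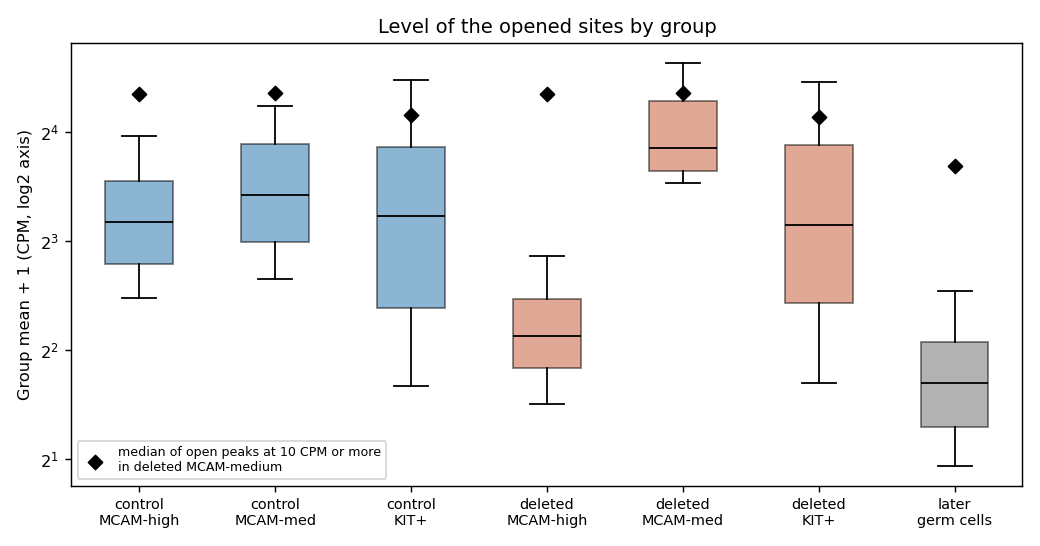
Group mean signal + 1 (CPM, log2 axis) of the 742 sites in each group; boxes give quartiles and median, whiskers the 10th to 90th percentiles, and diamonds the median of the 26234 open peaks. The site medians are 8.36 and 7.86 CPM in control and deleted KIT-positive cells and 2.25 CPM in later germ cells; the deleted MCAM-high and MCAM-medium boxes are fixed by the rule.

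In KIT-positive cells the sites stood at a middle level and spread widely. Their sum was 9781, 6705 and 6255 CPM in control replicates 1 to 3 (7581 ± 1919, SD, n = 3). The median site was at 8.36 CPM, the middle 50% of sites ran from 4.23 to 13.5 CPM, and 308 sites (41.5%) stayed at 10 CPM or more, while 27 were under 1 CPM and 7 at 0 counts in all 3 libraries. In the reference set of open peaks 73.5% were at 10 CPM or more.

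Against control MCAM-medium cells, edgeR called 24 of 733 sites higher in KIT-positive cells (3.27%, background 4.76%) and 30 lower (4.09%, background 2.57%). Of the open reference peaks 4.43% were higher and 3.84% lower, so the share of sites called lower was near theirs. Without the 2 libraries the calls were 3 higher (0.409%, background 1.53%) and 48 lower (6.55%, background 1.07%). Of the 30 lower sites 28 were among the 48. The median log2 fold change of the sites moved from -0.03 to -0.65, against -0.04 and -0.02 over all peaks. The count of higher sites was 1 without the library labelled MCAM-medium replicate 1, 63 without MCAM-medium replicate 2 and 14 without KIT-positive replicate 3. Over all peaks the higher calls went from 2747 to 582, 1462 and 1273 in the same fits. The count of lower sites was 16 and 11 without KIT-positive replicates 2 and 3, and 10 with the replicate number as a block. Over all peaks the lower calls went from 1484 to 920, 694 and 688 in the same fits, so calls were lost in general. Leaving out MCAM-medium replicate 2 leaves 1 library in that group. The median log2 fold change of the sites was then 1.08 (0.03 over all peaks). Scaled to total counts the split was 18 higher and 36 lower.

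Of the sites lower in KIT-positive cells, the 6 with the smallest p lie in Fras1, which encodes an extracellular matrix protein, Gm32525, Pkd1l1 (a polycystin relative), Camk2b (a calcium-dependent kinase subunit), Adcy10 (the soluble adenylyl cyclase of sperm) and Cntnap5a (a contactin-associated protein). The Fras1 site (chromosome 5, 96406914 to 96407374) read 15.4, 10.3 and 10.8 CPM (labelled MCAM-high), 7.89 and 15.5 CPM (labelled MCAM-medium) and 0, 1.08 and 0 CPM (KIT-positive). Both KIT-negative groups lay wholly above the KIT-positive libraries, whichever label the 2 libraries carry. Its log2 fold change against MCAM-medium was -5.05 ± 0.98 (SE, edgeR adjusted p = 0.00159), and -5.44 ± 1.15 (0.00394) without both.

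Gm32525 and Pkd1l1 sites had 0 counts in all 3 control KIT-positive libraries. Over that group 3 counts were worth 0.709 CPM. At the Gm32525 site (chromosome 13, 21225202 to 21225616) the MCAM-medium mean was 16.2 times this limit (5.57 and 17.3 CPM). The mean at the Pkd1l1 site (chromosome 11, 8896617 to 8897137) was 19.4 times it (4.64 and 22.9 CPM). EdgeR adjusted p was 0.002 and 0.00369. Both ratios use the group mean and leave out the spread of the MCAM-medium libraries, and the lower library alone would give less. They also take each count as a separate read. Of counts above 0, 62.5% and 73.9% were even in control KIT-positive replicates 2 and 3. Had both fragment ends been counted, the ratios would be lower, which was not tested. Both calls held without the 2 libraries (edgeR adjusted p = 0.00293 and 0.00122). In the 3 deleted KIT-positive libraries the Gm32525 site read 2.60, 2.22 and 2.18 CPM, where 3 counts were worth 2.60, 1.66 and 2.18 CPM, so it was at or little above that floor.

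The other 3 fell by 3.40 (Camk2b), 2.36 (Adcy10) and 3.05 (Cntnap5a) on the log2 scale, with edgeR adjusted p of 0.0117, 0.0126 and 0.013, and by 3.68, 2.81 and 3.45 without both. The Adcy10 site (chromosome 1, 165537773 to 165538348) went from 17.6 and 36.5 CPM in libraries labelled MCAM-medium to 5.22, 9.76 and 1.01 CPM in KIT-positive ones, with no overlap. The Rb1 site described above also fell towards KIT-positive cells, to 9.70, 0 and 3.04 CPM (-2.85 ± 0.78, edgeR adjusted p = 0.0225, and -3.69 ± 0.61, 2.18e-04, without both). The 5 libraries at 36.0 CPM or more were the deleted MCAM-medium ones, control MCAM-medium replicate 2 and the library labelled MCAM-high replicate 1.

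Of the sites higher in KIT-positive cells, the 6 with the smallest p lie in Crocc2 (a rootletin relative of the ciliary rootlet), St3gal3 (a sialyltransferase), Fryl, T2 and the predicted genes Gm30364 and Gm52178. The St3gal3 site (chromosome 4, 118071526 to 118072308) read 12.4, 5.39 and 4.00 CPM (labelled MCAM-high), 7.43 and 9.91 CPM (labelled MCAM-medium) and 38.0, 44.5 and 28.4 CPM (KIT-positive). All 3 KIT-positive libraries lay above all 5 others. The log2 fold change against MCAM-medium was 2.23 ± 0.42 (SE, edgeR adjusted p = 0.00127) and 2.02 ± 0.53 (0.023) without both.

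The Crocc2 site (chromosome 1, 93228127 to 93228670) ran from 7.43 and 11.2 CPM to 46.2, 31.4 and 31.5 CPM, and rose by 2.14 ± 0.39 (edgeR adjusted p = 0.00104) or 1.84 ± 0.52 (0.0391) without both. The other 4 lost their call without the 2 libraries (edgeR adjusted p from 0.0604 to 0.236), though their log2 fold changes stayed between 1.19 and 1.81. The Wwox-nearest site went from 1.86 and 2.48 CPM to 22.4, 13 and 18.3 CPM, a log2 fold change of 3.20 ± 0.68 (edgeR adjusted p = 0.00395), and 2.98 ± 0.82 (0.033) without both.

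Against control MCAM-high cells, 51 of 733 sites were higher in KIT-positive cells (6.96%, background 8.69%) and 27 lower (3.68%, background 4.79%), shares near or under those of all peaks. Of the open reference peaks 9.22% were higher and 6.65% lower. With both left out 213 were higher (29.1%, background 9.31%) and 14 lower (1.91%, background 5.33%), counts that again depend on a choice made partly at these sites, and the median log2 fold change went from 0.15 to 1.005 (all peaks -0.05 and -0.06). Of the 51 higher sites all 51 were among the 213. The count was 196 when the library labelled MCAM-high replicate 1 alone was left out, 23 and 26 without MCAM-high replicates 2 and 3, and 33 and 31 without KIT-positive replicates 1 and 3. Over all peaks the higher calls went from 5013 to 5423, 2977, 2847, 4782 and 2773 in the same fits. Without KIT-positive replicate 3 or the library labelled MCAM-high replicate 1, 12 were lower (1461 and 2852 of all peaks, from 2762). Scaled to total counts the split with all libraries was 36 higher and 34 lower.

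The 6 sites in or at a gene with the smallest p without the 2 libraries, again named after their values were seen, lie in Wdr45b (an autophagy protein), Sgsm2, Dnmbp (a guanine nucleotide exchange factor), Skap1 (an adaptor of T cell signalling), St3gal3 and Fbxl19. The Wdr45b site (chromosome 11, 121336141 to 121336587) read 15.1, 0 and 1.14 CPM in libraries labelled MCAM-high, 21.6, 26.0 and 34.5 CPM in control KIT-positive and 31.1, 32.7 and 23.3 CPM in deleted KIT-positive libraries. All KIT-positive libraries lay above all MCAM-high ones. Its log2 fold change was 2.40 ± 0.60 (edgeR adjusted p = 0.0067), and 5.68 ± 0.68 (2.25e-08) without both. The other 5 had 1.40 to 2.41 with all libraries, where Dnmbp did not pass (edgeR adjusted p = 0.0675), and 3.02 to 4.51 without both.

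**Figure D4:**
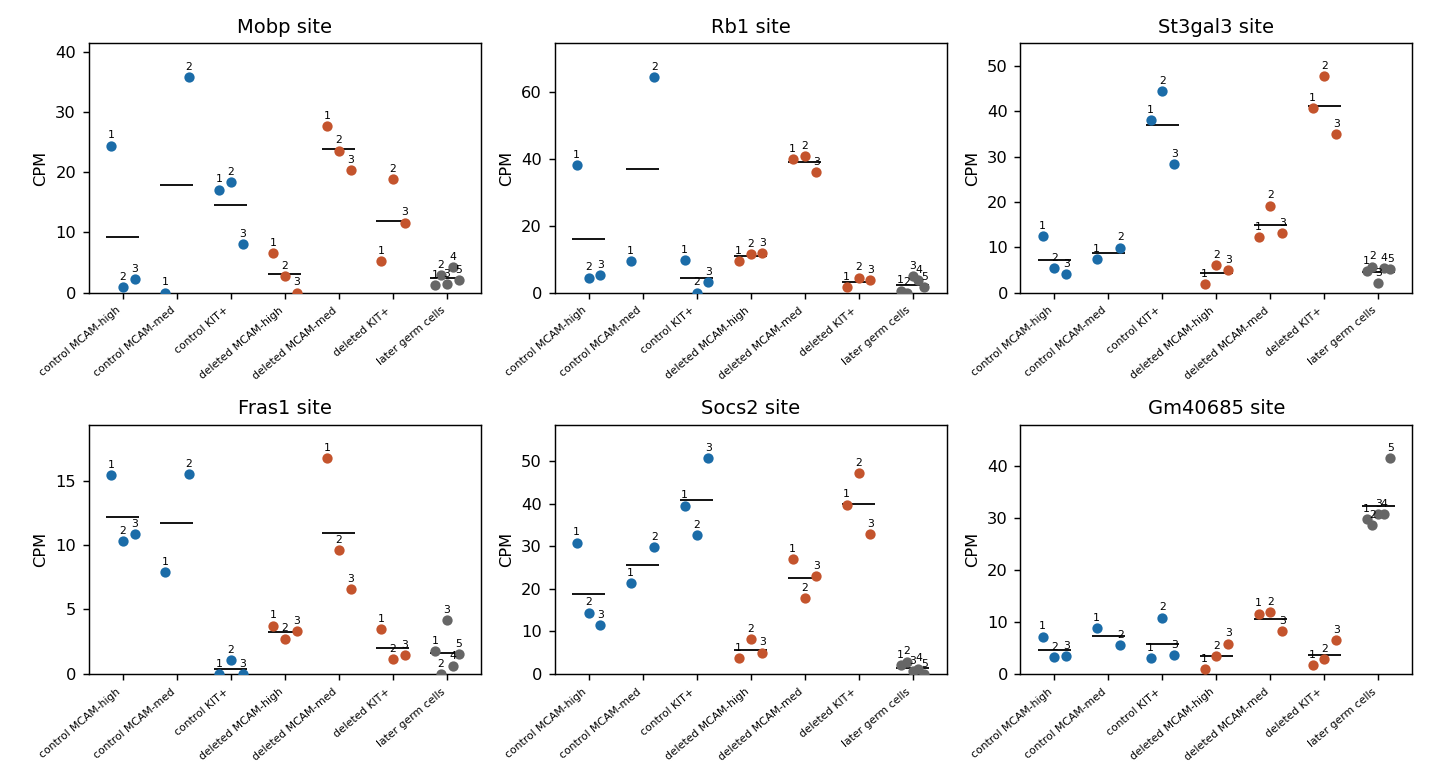
Signal in CPM (y axis, from 0) of 6 sites in every library; points are libraries with their replicate number and bars are group means. Mobp and Rb1 are highest in deleted MCAM-medium libraries, control MCAM-medium replicate 2 and the library labelled control MCAM-high replicate 1, St3gal3 and Socs2 are highest in KIT-positive cells, Fras1 is at 0 to 1.08 CPM in control KIT-positive libraries, and Gm40685 is highest in later germ cells, at 28.6 to 41.6 CPM.

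Deletion of TERT was compared at these sites in KIT-positive cells, the population whose libraries had no part in the choice. The sum over the sites was 7232, 8661 and 6756 CPM in deleted libraries (7550 ± 992, SD, n = 3) against 7581 ± 1919 CPM in controls, and the ranges overlapped. No site passed: edgeR called 0 of 733 higher and 0 lower (background 0.0% and 0.0%), with 23 sites and 1766 of all peaks at an unadjusted p under 0.05, and DESeq2 also called 0 sites. The median log2 fold change was 0.02 (0.00 over all peaks). Without the 2 libraries the calls were again 0 and 0 (background 0.0% higher, 0.00173% lower). Across the 742 sites control and deleted KIT-positive means correlated at r = 0.882 on the log2(CPM + 1) scale, a description over sites that share depth and peak strength. The same measure was 0.395 between control KIT-positive and deleted MCAM-medium means, the latter narrowed by the rule.

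In later germ cells most of the sites were lower than in KIT-positive cells. These libraries also differ from the controls in genotype (TertTdtomato/+), and their labels give no day after tamoxifen. Cell stage cannot be told apart from genotype, treatment or preparation in any comparison with them. The 5 libraries summed to between 1733 and 2318 CPM (2105 ± 247, SD, n = 5), under every spermatogonial library including the deleted MCAM-high ones at 2546 to 3031 CPM. The median site was at 2.25 CPM, 16 of 742 (2.16%) were at 10 CPM or more and 87 under 1 CPM. In the reference set of open peaks 54.9% stayed at 10 CPM or more. Fewer cells with an open site and less opening per cell cannot be told apart in such bulk libraries.

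Against control KIT-positive cells, edgeR called 447 of 731 tested sites lower (61.1%, background 22.8% of 73134 peaks) and 15 higher (2.05%, background 29.2%). In the reference set of open peaks 36.8% were lower and 14% higher, so the sites were lower more often than open peaks as a whole. This difference in shares was not tested. The median log2 fold change was -1.85, against 0.12 over all peaks and -0.44 over the open peaks. Without the 2 libraries, which enter only through the shared spread, 467 were lower and 17 higher.

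Against control MCAM-high cells, 484 of 731 sites were lower (66.2%, background 24.9%) and 8 higher (1.09%, background 33.5%). With both left out 197 were lower (26.9%, background 21.5%) and 31 higher (4.24%, background 31.9%), and the median log2 fold change went from -1.70 to -0.78. In the open reference set 42.4% were lower with all libraries and 37.5% without both. Without the library labelled MCAM-high replicate 1 alone 189 were lower and 29 higher (15475 and 22970 of all peaks, from 18184 and 24506). Of the 197, 195 were among the 484.

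Among the largest falls from KIT-positive to later germ cells were those at sites in Epas1 (the hypoxia-inducible factor HIF-2α), Socs2 (a suppressor of cytokine signalling), Tsc1 (hamartin, an inhibitor of mTORC1), Mettl8 (an RNA methyltransferase) and Kazn (kazrin). The Socs2 site (chromosome 10, 95404731 to 95405236) read 39.5, 32.5 and 50.7 CPM in control and 39.8, 47.1 and 32.8 CPM in deleted KIT-positive libraries. Later libraries ran from 0 to 2.87 CPM (median 1.21), far below. Its log2 fold change was -4.74 ± 0.43 (SE, edgeR adjusted p = 8.51e-14).

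The Tsc1 site (chromosome 2, 28644738 to 28645144) fell from 23.9, 26.0 and 19.3 CPM to between 0 and 1.54 CPM (-4.54 ± 0.56, edgeR adjusted p = 1.17e-09), and the Epas1 site (chromosome 17, 86757684 to 86757990) from 11.2, 10.8 and 11.2 CPM to between 0 and 0.698 CPM (-4.92 ± 0.70, 4.79e-08). No later library reached any KIT-positive one at either site. The Mettl8 and Kazn sites fell by 4.47 and 4.41 on the log2 scale. All 5 calls held in the 15 other fits run for each, those without 1 library included.

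Among the sites called higher, the highest fold changes in or at a gene were at Gm32525, Gm40685, Sdf2 (an endoplasmic reticulum protein), Thsd4, Zp3r (a sperm acrosomal protein) and St6gal1 (a sialyltransferase). The Gm40685 site (chromosome 10, 69311811 to 69312469), at the start of a long non-coding RNA, was at 2.98, 10.8 and 3.55 CPM in control KIT-positive and at 28.6 to 41.6 CPM (median 30.7) in later libraries. The groups did not overlap, and the log2 fold change was 2.66 ± 0.41 (SE, edgeR adjusted p = 2.84e-07). The St6gal1 site (chromosome 16, 23341753 to 23342717) read 20.9, 5.42 and 5.07 CPM against 20.6 to 26.5 CPM, and its KIT-positive replicate 1 overlapped the later libraries (1.23 ± 0.42, 0.011).

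The Gm32525 site was at 0 counts in KIT-positive cells and at 0 to 3.08 CPM in later ones, where 3 counts were worth up to 2.09 CPM. The later mean was 2.34 times the worth of 3 counts over the KIT-positive group, each count taken as a separate read. This ratio leaves out the spread of the later libraries. The calls of Gm32525, Sdf2, Thsd4, Zp3r and St6gal1 were each lost without control KIT-positive replicate 3 (edgeR adjusted p from 0.0556 to 0.153), a fit that called 7 sites higher. Those of Thsd4 and Zp3r were also lost without KIT-positive replicate 1 (0.102 and 0.214), that of St6gal1 without replicate 2 (0.0668), and that of Zp3r without later replicates 1, 2 or 5. That of Gm40685 held in each of its 15 other fits. Among the sites with printed sequence, Rsph14, which encodes a radial spoke protein of motile cilia, read 21.6 to 34.9 CPM in later cells and 29.8, 16.3 and 17.8 CPM in KIT-positive ones (0.38 ± 0.31, 0.306). Fbxo40 fell by 1.53 ± 0.30 (3.28e-05), from 71.6, 21.7 and 29.4 CPM to between 10.4 and 20.5 CPM. The Lpar1 site, in the gene of a lysophosphatidic acid receptor, was at 2.98, 5.42 and 1.52 CPM in KIT-positive and 2.38 to 6.17 CPM in later cells, all low (0.56 ± 0.73, 0.544).

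**Figure D5:**
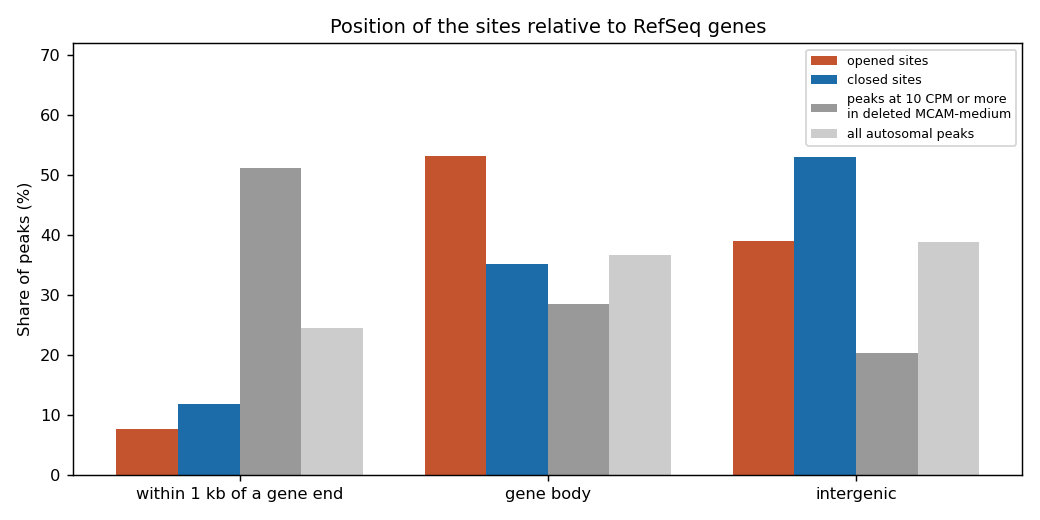
Share of peaks (y axis, percent) within 1 kb of an annotated gene end, in a gene body or intergenic, for the 742 opened sites, the 185 closed sites, the open reference peaks and all autosomal peaks. Opened sites are at gene ends in 7.68%, against 51.3% of the open reference peaks.

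The sites lay away from gene starts. Within 1 kb of an annotated gene end were 57 (7.68%), in a gene body 395 (53.2%) and between genes 290 (39.1%). The open reference peaks had 51.3%, 28.4% and 20.3%, and all autosomal peaks 24.5%, 36.7% and 38.8%. RefSeq promoter windows touched 1.89% of the sites, 38.3% of the open peaks and 14.1% of autosomal peaks. The median distance to a gene start was 23.8 kb, against 4.32 kb for open peaks and 19.6 kb for all autosomal peaks. The sites were thus placed more like autosomal peaks as a whole than like the open reference peaks, which were stronger in deleted MCAM-medium cells (median 19.4 against 13.4 CPM). This is a description with no test, and the annotation used holds no exons, introns or UTRs.

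They were narrower than open peaks, with a median width of 498 bp against 759 bp (416 bp for all autosomal peaks), and the closed sites had 528 bp. The 742 sites were scattered. Neighbouring sites were a median of 1584 kb apart, 10 neighbouring pairs lay within 10 kb and 29 within 50 kb. Chromosome 13 held 7.01% of the sites and 5.03% of autosomal peaks, and chromosome 7 held 3.64% against 5.73%. Sites within 1 kb of a miRNA hairpin numbered 2, at Mir3066 and Mir8095.

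In all, 425 genes held a site in the body or at an end, 17 of them 2 sites and 5 of them 3. The 5 were Kazn, Ptprd (a receptor tyrosine phosphatase), Rbms3 (an RNA-binding protein), Tenm3 (a teneurin adhesion protein) and Upp2 (a uridine phosphorylase). Sites in 1 gene could differ in level or be alike, and differences between them were not tested. In Kazn the site at 142204817 on chromosome 4 read 35.0, 21.7 and 9.13 CPM in control KIT-positive libraries, and the site at 142214623 read 5.22, 2.17 and 5.58 CPM. Neither was called against MCAM-medium (edgeR adjusted p = 0.738 and 0.396). In Rbms3 all 3 sites were called lower in later germ cells than in control KIT-positive cells (log2 fold change -1.58, -2.96 and -2.09). In Ptprd the site at 76163303 on chromosome 4 read 2.98, 0 and 0.507 CPM in those libraries, without a call against MCAM-medium (edgeR adjusted p = 0.122). In Tenm3 the site at 48613250 on chromosome 8 was higher in KIT-positive than in MCAM-medium cells (2.58 ± 0.77, 0.0363), but not without the 2 libraries (1.83 ± 0.88, 0.28).

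Genes known for these stages held almost none of the sites in the body or at an end. Sites between genes are not counted here, such as those assigned by nearest gene to Axin2, Pou3f1, Ctnnb1 and Inhba. Of 12 lists, 10 held 0: stem cell genes of undifferentiated spermatogonia (0 of 93 peaks in or at 28 genes), differentiating spermatogonia (0 of 49), the retinoic acid pathway (0 of 72), meiosis (0 of 52), spermiogenesis (0 of 46), the WNT pathway (0 of 109), and markers of Sertoli (0 of 48), Leydig (0 of 16), immune (0 of 13), and endothelial and peritubular cells (0 of 39). The sites make up 0.773% of all peaks, so lists of this size would hold few at any rate. The 2 lists with a site were progenitor genes (1 of 66, in Igf1r) and MAPK and FGF feedback genes (1 of 37, in Etv4).

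The Etv4 site (chromosome 11, 101772232 to 101772901) lies in the gene of an ETS factor downstream of FGF and GDNF signals. It read 24.5, 8.53 and 1.71 CPM (labelled MCAM-high), 5.57 and 31.6 CPM (labelled MCAM-medium), 8.20, 6.51 and 5.07 CPM (control KIT-positive) and 7.67 to 15.8 CPM (later). It passed no test with all libraries. Without both, it was not called for MCAM-medium minus MCAM-high (2.50 ± 0.72, edgeR adjusted p = 0.145), and was higher in later germ cells than in MCAM-high cells (1.34 ± 0.49, 0.0162).

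The Igf1r site (chromosome 7, 67982655 to 67983077) lies in the gene of the IGF1 receptor. It read 11.9, 10.8 and 10.2 CPM in control and 20.8, 24.4 and 9.46 CPM in deleted KIT-positive libraries, and 0 to 2.79 CPM in later ones. It fell by 3.19 ± 0.67 from KIT-positive to later cells (edgeR adjusted p = 7.12e-05), and the difference with deletion did not pass (0.75 ± 0.56, 1).

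Peaks of these lists were counted at the step from MCAM-medium to KIT-positive cells, where 4.76% of all peaks were higher and 2.57% lower. Of 36 tested peaks of differentiating spermatogonia genes, 7 were higher and 1 lower in KIT-positive than in MCAM-medium cells (median log2 0.49, all peaks -0.04), and of 68 peaks of stem cell genes 0 were higher and 1 lower (median 0.17). Progenitor genes had 0 higher and 3 lower of 50, MAPK and FGF feedback genes 1 and 1 of 34, and the retinoic acid pathway 3 and 1 of 56. Meiosis genes had 3 and 0 of 32, spermiogenesis genes 3 and 2 of 25 and the WNT pathway 3 and 0 of 83. With both left out the higher and lower counts were 1 and 1 (differentiating), 0 and 1 (stem cell), 0 and 1 (progenitor), 0 and 0 (MAPK and FGF feedback), 3 and 0 (retinoic acid), 1 and 0 (meiosis), 1 and 1 (spermiogenesis) and 2 and 0 (WNT). From KIT-positive to later cells, 33 of 46 peaks of spermiogenesis genes and 25 of 45 of meiosis genes were higher, and 2 and 5 lower, where 29.2% of all peaks were higher and 22.8% lower.

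Markers of other testis cells were measured beside the sites. Over 12 gene-end peaks of Sertoli genes the sum was 256 to 266 CPM in the libraries labelled control MCAM-high, 239 and 240 CPM in those labelled MCAM-medium, 264 to 293 CPM in deleted MCAM-high and 222 to 280 CPM in deleted MCAM-medium libraries. Immune genes (7 gene-end peaks) ranged from 55.2 to 62.8 and 58.8 to 60.4 CPM in the control gates and from 57.5 to 76.5 and 58.4 to 77.7 CPM in the deleted ones. Leydig genes (4 gene-end peaks) lay between 58.1 and 77.7 CPM, and endothelial and peritubular genes (13 gene-end peaks) between 170 and 246 CPM, in all 11 KIT-negative libraries. The deleted ranges overlapped between the gates for immune, Leydig, and endothelial and peritubular genes, and for Sertoli genes. The control Sertoli sums did not overlap between the gates (at most 240 CPM against at least 256 CPM), whereas the immune, Leydig, and endothelial and peritubular sums did. Counting error of these sums was not computed, so nothing is read from that gap about the labels. The part of these cells in the control MCAM comparison was not tested. In later germ cells the Sertoli sum was 75.04 to 102.5 CPM, against 204 to 225 CPM in control KIT-positive cells, and its part in the lower signal of the sites there was not tested.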

How the data were processed

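The deposited table, per the file headers, holds raw read counts for 96049 peaks in 22 libraries, mm10 coordinates. FastQC, Bowtie2, SAMtools and Picard, and builds mm10, GRCm38 and hg19 (roles not stated), are named in the submitters' processing notes; the peak caller, counter, Tn5 offset and filters are not given in the sources used here. Totals were 922085 to 3358377 counts, and 48.8% to 73.9% of nonzero counts per library were even.

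CPM were computed from column totals. Counts were tested with edgeR 4.0.16 (R 4.3.3; TMM, filterByExpr by group, quasi-likelihood, Benjamini-Hochberg threshold 0.05 over all peaks) in 2 fits: the 11 spermatogonial libraries not used by the rule (57717 peaks, 7 residual degrees of freedom) and the 13 heterozygous libraries (73134 peaks, 9). SE is the log2 fold change over the root of F. Scripts were tested on simulated data. Alternatives were DESeq2 1.42.0, other scalings, filters and sample sets, a replicate block and leaving out each library. Peaks were placed by RefSeq genes and promoter windows (GRCm38.p6) with a gene-end window of 1 kb. Motifs were searched on both strands.

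The members, lists and rules were chosen with earlier results of these data known. Named sites were, by rule, the 8 highest rule ratios, the 5 lowest control fold changes, those in listed genes, those in genes with most sites, the 6 with the smallest p each way for KIT-positive against MCAM-medium, the 6 most changed each way in later germ cells, and 3 on each side of the limit. The rule for the control MCAM step found none, so the sites named there, those named against MCAM-high without the 2 libraries, and the sequences, were chosen after values were seen. Of the sites these rules name, 2 are not reported here.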

Additional observations from a re-analysis of the deposited data

Results flagged for a closer look

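Of 80 groups of later germ cell values at named sites, 10 had 1 library far from the other 4. The measure was its gap to the nearest value over the range of all 5, at 0.735 or more in these 10. The nominal rate of about 1 in 20 groups assumes values of 1 normal population. Most of these values are low counts, so that rate need not apply and no excess is read from the 10. Replicate 3 was high at sites in Rab40c (6.28 CPM, others 0.573 to 2.06), Ptprd (5.58 CPM), Thsd4 (11.9 CPM, others 5.14 to 6.25) and T2 (6.28 CPM), and low in St3gal3 (2.09 CPM, others 4.76 to 5.73). Replicate 2 was high in Camsap2 (3.44 CPM) and Wt1os (6.88 CPM) and low in Rbms3 (1.15 CPM). Replicate 4 was high in Kazn (5.43 CPM, others at most 1.40), and replicate 5 at Gm40685 (41.6 CPM, others 28.6 to 30.8). Labels give these libraries more than 1 cell type.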

How the results depend on the processing

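Of the alternative values for counts of sites, 147 stayed within 1.5 times the value reported and 32 did not. Those that stayed include 0 against 0 for deletion and, but for the fit without both libraries, for the control MCAM step. The 147 therefore overstate how stable the other counts were. Without both control KIT-negative libraries numbered 1, the sites called higher and lower were 213 and 14 (KIT-positive minus MCAM-high), 55 and 0 (MCAM-medium minus MCAM-high) and, for KIT-positive minus MCAM-medium, 3 and 48. They were 17 and 467 (later minus KIT-positive) and 31 and 197 (later minus MCAM-high). With no filter on low counts, 37 higher and 52 lower sites were called for KIT-positive minus MCAM-medium, and 58 lower for KIT-positive minus MCAM-high. All 17 spermatogonial libraries in 1 fit gave 48 lower for the latter. The mean count filter left 7 higher for later minus KIT-positive, and DESeq2 gave 321 lower for later minus MCAM-high. A fold limit of 4 kept 382 sites and one of 2 found 1951. The causes were not tested. With the replicate number as a block, 10 sites were lower for KIT-positive minus MCAM-medium. Same-number deviations correlated at -0.42 to 0.10. With 2 or 3 libraries per group, the 2 in doubt among them, these values cannot settle whether equal numbers are paired. The block gave control and deleted libraries of equal number the same level, and it could not be fitted for later germ cells.

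Leaving out 1 library gave 0 to 0 for the MCAM step in controls and for deletion. It gave 1 to 63 higher and 4 to 38 lower for KIT-positive minus MCAM-medium, 23 to 196 and 12 to 36 for KIT-positive minus MCAM-high, 7 to 17 and 351 to 437 for later minus KIT-positive, and 6 to 29 and 189 to 533 for later minus MCAM-high. For MCAM-medium minus MCAM-high, Slc16a12 (0.39), 2700069I18Rik (0.056) and Wwox (0.26) changed sign without both libraries. Leaving out 1 library took Mobp from -6.99 to 3.42, Synj2 from -1.52 to 1.78, L3mbtl4 from -1.83 to 2.83, Wt1os from -2.04 to 3.23 (-0.19 and -0.10 without MCAM-high replicates 2 and 3), Rb1 from -0.79 to 2.88, Ide from -0.65 to 2.04 and Wwox from -1.46 to 0.094. Scaling to total counts moved the median of all peaks to -0.20 and -0.21 (KIT-positive minus MCAM-medium and minus MCAM-high) and to -0.20 (later minus MCAM-high), and RLE moved it to 0.31 and 0.22 in the later comparisons. Depth limits single sites: 3 counts were worth 0.893 to 3.25 CPM.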

Other observations

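The 185 sites closed by the mirrored rule were more often far from genes than the opened ones: 53.0% lay between genes, with a median of 41.9 kb to a gene start. In later germ cells 33 of them (17.8%) were at 10 CPM or more, against 16 of the 742 opened sites (2.16%), and their sum was 1260 to 1554 CPM against 679 to 920 CPM in control KIT-positive cells. These values carry no test.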
